A study of Homo sapiens with 5 samples.

Results

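Cells with many and with few transcripts of interferon-stimulated genes were compared within each of 5 libraries of SW480 tumor cells from zebrafish xenografts. The grouping score was the sum of the unique molecular identifiers (UMIs, each standing for 1 captured transcript) of ISG15, IFI6, IFIT1, IFIT2, IFIT3, MX1, OAS1 and ISG20 per 10,000 UMIs of the cell, spike-in RNA left out. In each library, the 20% of cells with the highest score formed group A and the 40% with the lowest formed group B. Of the 826 cells that passed the well filter (more than 2000 genes, under 25% of UMIs on mitochondrial genes, with spike-in rows counted in both), 163 were in group A, 328 in group B and 335 lay between. With the spike-in rows left out of the filter, 822 cells would have passed. Group A held 45, 28 and 32 cells of libraries 6, 7 and 8 and 26 and 32 cells of libraries 10 and 11, and group B held 91, 56, 65, 52 and 64 cells in the same order. SW480 is a human colorectal carcinoma line, here carrying GFP from a lentiviral vector, and every group consisted of these cells grown in zebrafish embryos. Tumors were dissected 1 day post injection (1 dpi, libraries 6, 7 and 8) or 4 days post injection (4 dpi, libraries 10 and 11), pooled from about 100 tumors, and live cells were sorted singly into 384-well plates, each plate giving 1 library. No source used here says if the plates of 1 time point hold cells of different pools, and p-values may then cover only the spread between plates of 1 cell suspension.

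Interferons are secreted proteins that bind receptors on the cell surface and, through JAK kinases and transcription factors of the STAT and IRF families, switch on many interferon-stimulated genes. The factor they form binds the interferon-stimulated response element, a short DNA motif near the start of many of these genes. Some of them, ISG15 and ISG20 among them, can also be switched on by other signals, and cancer cells can express a part of the set without added interferon. In the score, ISG15 encodes a small protein that is attached to other proteins, IFIT1, IFIT2 and IFIT3 encode proteins that bind viral RNA, MX1 a GTPase that traps viruses, OAS1 the enzyme whose product activates RNase L, IFI6 a membrane protein that restrains viral replication, and ISG20 an exonuclease that degrades RNA.

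The upstream sequences of 6 genes that carry the results are shown, since they can be read for the interferon response element. They are the 250 bases upstream of the start site in RefSeq's GRCh38.p14 annotation, written 5′ to 3′ on the gene's strand. Capitals mark, on either strand, GAAA followed after any 2 bases by another GAAA (the core of the interferon-stimulated response element), TGANTCA (the site of AP-1 factors) and TTTGAA (the core of the cell cycle homology region of mitotic genes). ISG15 and ISG20 supplied most of the score, DDX60 was a rise among the antiviral genes outside it, PLAUR and EMP1 were among the largest rises, and DLGAP5 was among the falls.
ISG15 (chr1:1013247-1013496, plus strand): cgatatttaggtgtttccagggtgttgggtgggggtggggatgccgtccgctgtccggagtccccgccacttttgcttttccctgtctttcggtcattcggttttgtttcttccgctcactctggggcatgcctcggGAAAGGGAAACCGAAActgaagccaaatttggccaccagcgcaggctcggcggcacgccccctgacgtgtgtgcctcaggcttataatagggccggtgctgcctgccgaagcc
ISG20 (chr15:88638766-88639015, plus strand): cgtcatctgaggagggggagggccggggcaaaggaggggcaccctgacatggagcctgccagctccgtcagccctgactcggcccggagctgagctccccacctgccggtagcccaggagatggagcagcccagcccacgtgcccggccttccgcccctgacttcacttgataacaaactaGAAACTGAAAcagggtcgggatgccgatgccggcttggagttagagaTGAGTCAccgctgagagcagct
DDX60 (chr4:168318753-168319002, minus strand): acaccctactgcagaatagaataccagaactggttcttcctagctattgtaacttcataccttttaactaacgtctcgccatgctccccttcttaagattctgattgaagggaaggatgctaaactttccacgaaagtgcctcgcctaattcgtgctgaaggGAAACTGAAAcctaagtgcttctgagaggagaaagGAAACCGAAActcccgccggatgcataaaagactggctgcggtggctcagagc
PLAUR (chr19:43670170-43670419, minus strand): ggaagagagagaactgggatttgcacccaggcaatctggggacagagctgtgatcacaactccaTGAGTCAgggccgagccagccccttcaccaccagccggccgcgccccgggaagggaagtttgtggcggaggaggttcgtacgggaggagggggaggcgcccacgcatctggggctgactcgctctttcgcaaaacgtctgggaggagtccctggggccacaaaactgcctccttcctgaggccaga
EMP1 (chr12:13196476-13196725, plus strand): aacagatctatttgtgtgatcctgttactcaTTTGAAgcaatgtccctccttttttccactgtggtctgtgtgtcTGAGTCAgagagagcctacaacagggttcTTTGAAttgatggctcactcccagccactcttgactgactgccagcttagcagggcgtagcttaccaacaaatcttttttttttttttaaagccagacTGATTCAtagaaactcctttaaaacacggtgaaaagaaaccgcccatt
DLGAP5 (chr14:55191586-55191835, minus strand): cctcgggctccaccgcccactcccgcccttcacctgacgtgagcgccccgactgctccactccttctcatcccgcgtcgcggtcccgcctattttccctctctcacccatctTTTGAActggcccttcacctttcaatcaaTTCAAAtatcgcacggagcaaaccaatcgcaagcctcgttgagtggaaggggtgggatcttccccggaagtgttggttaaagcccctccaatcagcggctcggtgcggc
ISG15 and DDX60 held the response element and no AP-1 match, and PLAUR and EMP1 the reverse. ISG20 held both, the response element 69 bases and the AP-1 match 22 bases before its start. The genes shown are examples, not a rule for the genes that moved. Among other rises with an upstream sequence, ECM1, CLDN4 and LAMA3 held an AP-1 match, while CCL20, LINC01564, LAMB3, CDKN1A and IL32 held none. Among other falls, KIF15 held TTTGAA, while KIF24, PLK4, KIF2C and NUF2 did not. The start sites used for ISG20 and DDX60 lie inside the longer annotated gene. Of the 8 score genes, 7 had a promoter in the table (IFIT2 had none), and 5 of the 7 (ISG15, IFI6, IFIT1, IFIT3 and ISG20) held the paired GAAA of the response element, against 3.07% of all 27305 promoters. TGANTCA was found in 6.6% of all promoters and in 1 of the 7. A match is a description of these letters, not a site of binding.

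The score was low in nearly every cell (see the plot of the score of every cell). Its median per library was 0.361, 0.436, 0.566 at 1 dpi and 0.58 and 0.701 per 10,000 at 4 dpi, and the highest cell reached 3.53, 8.23, 7.07, 4.85 and 10.6 in the same order. A median cell of group A carried between 3.0 and 5.0 score UMIs, and 232 of the 328 cells of group B carried 0. The lowest group A cell stood at 1.03, 1.23, 1.29, 1.47 and 1.6 and the highest cell below it at 1.03, 1.21, 1.26, 1.47 and 1.59. Likewise the highest group B cell stood at 0.25, 0.314, 0.323, 0.457 and 0.42 and the lowest cell above it at 0.254, 0.323, 0.328, 0.461 and 0.435. The groups are the ends of a range, with no gap at either limit. When each cell was thinned to 5000 UMIs, 596 of 815 cells scored 0, and 86 of the 163 group A cells stayed in the top 20%. ISG15 gave 29.7% and ISG20 28.6% of all score UMIs, IFI6 14.4%, IFIT1 9.2%, and the other 4 genes between 2.93% and 6.01% each.

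**Figure D1:**
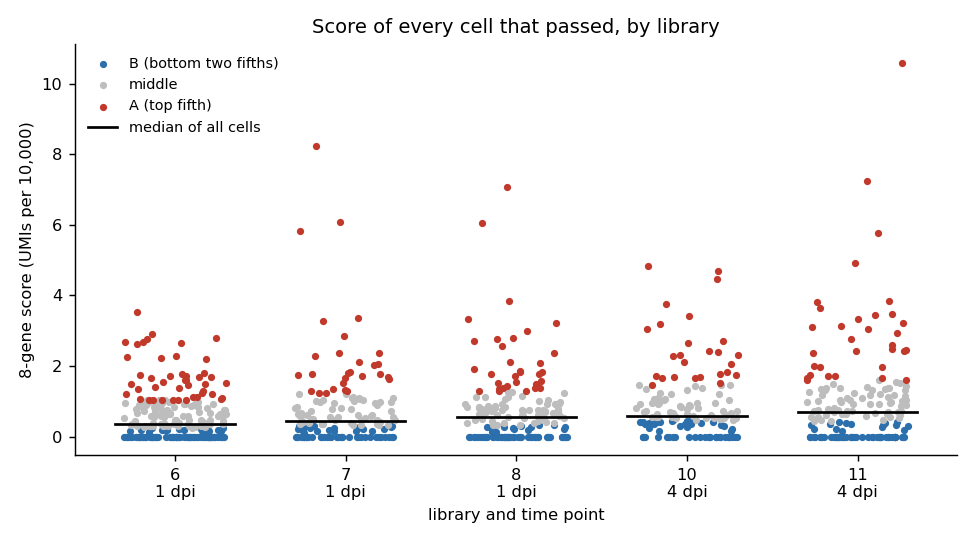
Score of each of the 826 cells (UMIs of the 8 genes per 10,000, y axis) in the 5 libraries (x axis), colored by group, with the library's median as a black line. Most cells lie under a score of 1 to 2, and the few high cells, up to 10.6 in library 11, belong to group A by construction.

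The values that chose the groups are given as a description. In group A, 107 of 163 cells carried an ISG15 UMI (65.6%) and 97 an ISG20 UMI (59.5%), against 32 and 27 of 328 in group B (9.76% and 8.23%). IFI6 was found in 61 cells of group A, OAS1 in 35, IFIT3 in 29, IFIT1 in 28, MX1 in 22 and IFIT2 in 17. A group A cell rarely carried the whole set. Of the 163, 39 held 1 of the 8 genes, 54 held 2, 40 held 3, 22 held 4, 7 held 5 and 1 held 6. Over all cells, IFIT2 rested on 56 UMIs, OAS1 on 86, MX1 on 90 and IFIT3 on 115. The label of the groups as interferon-gene-high and low was checked with ISG15, IFIT2 and IFIT3, which are themselves score genes. Their summed level was 0.533 to 1.19 per 10,000 in group A and 0.0265 to 0.102 in group B. All cells were of 1 line, so no cell type that lacks these genes was at hand to set the share that free RNA alone gives. Transcripts of the interferons themselves were nearly absent, with 1 UMI of IFNA5, 1 of IFNE, 2 of IFNL1, 1 of IFNL4 and 0 of the other 18 interferon genes over all cells.

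Both groups carried the markers of the line. The 14 epithelial markers summed to 55.97 to 66.98 UMIs per 10,000 in group A and 46.9 to 60.7 in group B, the 22 leukocyte markers to 0.203 to 0.312 and 0.167 to 0.245, and the 12 fibroblast and endothelial markers to 0.317 to 0.584 and 0.197 to 0.313. PTPRC was at 0 UMIs in group A and 3 in group B, and MPO, AIF1, TYROBP, CD3E, MS4A1, NKG7 and S100A8 were at 0 in all cells. The host was zebrafish and the counts are human-mapped, so these markers cannot show whether host cells or host RNA were present. Cell depth was higher in A in 1 library. Group A had median UMIs per cell of 28839, 31528 and 20081 at 1 dpi and 22662 and 12454 at 4 dpi, and group B 23948, 32052 and 21003 at 1 dpi and 25208 and 18940.0 at 4 dpi, with A the higher in 1 of 5 libraries (exact two-sided sign-flip permutation test, p = 0.562; the smallest p 5 pairs allow is 0.063). Library 11 had the widest gap, with shallower cells in group A. The alternative planned as the bottom 20% held every cell with a score of 0, which were 19.7% to 31.6% of a library. Against these 232 cells the direction turned, and A was deeper in 4 of 5 libraries (mean difference 7696 UMIs, exact p = 0.125). A also held more genes per cell in 5 of 5 (817 genes, exact p = 0.063). The mitochondrial share averaged 11.7% in A and 12.4% in B (exact p = 0.875).

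To ask whether the score genes went together, each was tested between cells grouped by the other 7. ISG15 passed. In the cells high by the other 7 genes its CPM (UMIs per 1000000 UMIs of the summed cells, the scale of all levels given from here on) was 22.8, 51.1 and 54.5 at 1 dpi and 30.5 and 69.9 at 4 dpi, against 16.2, 15.6 and 21.9 at 1 dpi and 18.7 and 22.1 at 4 dpi in the low cells, and it was higher in 5 of 5 libraries (log2 1.20 ± 0.22 (SE), adjusted p = 0.00963; edgeR's quasi-likelihood test, Benjamini-Hochberg over 9678 genes, of which 1.18% were called and 0.858% called higher). Without library 7 its adjusted p was 0.0938. The CPM of ISG20 was 18.7, 69.3 and 43.9 at 1 dpi and 28.1 and 32.7 at 4 dpi in the high cells and 19.2, 17.1 and 18.7 at 1 dpi and 15.8 and 10.2 at 4 dpi in the low cells. Library 6 showed no higher ISG20 in its high cells, while the other 4 did, and the test did not pass (log2 1.20 ± 0.27 (SE), adjusted p = 0.0938; 0.133% of genes called). IFI6 was 7.82, 11.8 and 18.4 at 1 dpi and 17.3 and 24.4 at 4 dpi in the high cells and 5.69, 6.11 and 4.88 at 1 dpi and 29.4 and 13.5 at 4 dpi in the low cells, higher in 4 of 5 libraries (log2 0.60 ± 0.35 (SE), adjusted p = 0.441; 2.42% of genes called, 1.99% higher).

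The other 5 genes were too sparse for the filter on low counts and were fitted without it. OAS1 passed, with 32 UMIs in the high cells and 13 in the low cells and a higher level in 5 of 5 libraries (log2 2.41 ± 0.61 (SE), adjusted p = 0.00654). IFIT2, with 21 and 12 UMIs, was also higher in 5 of 5 but did not pass (log2 1.79 ± 0.69 (SE), adjusted p = 0.189). MX1 (25 and 29 UMIs), IFIT1 (33 and 49) and IFIT3 (23 and 34) were higher in 4, 3 and 4 libraries, with adjusted p from 0.518 to 0.685. The low group held more cells than the high group, so these UMIs are not to be compared without the levels. Of the 8 genes, 3 were tested in the filtered fits (ISG15, ISG20 and IFI6), and 1 of them passed. Without the filter 3 of 8 passed (ISG15, ISG20 and OAS1), and for the others a difference was not detectable at this depth. The share of all genes called in these unfiltered fits is not given. For groups A and B over all plates, leaving out the filter raised the calls from 223 of 9959 genes to 368 of 15252.

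Between time points, 3 of the 8 score genes passed, all of them higher at 4 dpi. Over all cells of a library IFI6 had a CPM of 6.4, 6.32 and 7.95 at 1 dpi and 22.2 and 17.9 at 4 dpi (log2 1.53 ± 0.22 (SE), adjusted p = 0.00015, edgeR, 4 over 1 dpi), IFIT2 was 0.933, 1.3 and 1.25 at 1 dpi and 4.8 and 4.49 at 4 dpi (log2 1.98 ± 0.43 (SE), adjusted p = 0.00323) and IFIT3 was 2.8, 2.05 and 4.18 at 1 dpi and 6.56 and 9.76 at 4 dpi (log2 1.43 ± 0.35 (SE), adjusted p = 0.0073). Each was higher in both 4 dpi libraries than in every 1 dpi library. Between these time points 13.4% of 12610 genes were called higher at 4 dpi, so 3 of 8 is to be read against that share. ISG15 was 18.4, 25.3 and 24.7 at 1 dpi and 18.2 and 27.4 at 4 dpi (log2 -0.01 ± 0.20 (SE), adjusted p = 0.968) and ISG20 19.7, 24.5 and 21.3 at 1 dpi and 17.9 and 24.8 at 4 dpi (log2 -0.06 ± 0.19 (SE), adjusted p = 0.851), and their libraries overlapped between time points. IFIT1, MX1 and OAS1 did not pass either (log2 0.37, 0.20 and 0.10). The libraries' median score was 0.454 ± 0.104 (SD, n = 3) at 1 dpi and 0.641 ± 0.0854 (SD, n = 2) at 4 dpi. They did not overlap, but libraries 8 and 10 lay next to each other, and the difference did not pass (exact permutation test, two-sided, p = 0.2; the smallest p this design allows is 0.1).

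With the 8 score genes left out, 189 genes rose and 34 fell in group A over all 5 libraries (edgeR's quasi-likelihood test on UMIs summed per group and library, the library as block, adjusted p under 0.05). These are 1.90% and 0.341% of the 9959 genes tested, 2.24% together. Of the 189, 169 were higher in A in each library, and of the 34, 32 were lower in each. A higher sum can come from more cells with the transcript or from more of it per cell, and the sums do not tell these apart. Of the genes that rose, 7 stood on any of the interferon-system lists. Tested on those lists were 41 antiviral effectors, 25 nucleic acid sensors and adaptors and 24 interferon receptor, JAK-STAT and IRF genes. The lists also held 4 tested genes of ISG15 conjugation and 16 of MHC class I presentation. The 7 are to be read against the 1.90% of all genes that rose. The count of 223 was 134, 77 and 104 without libraries 6, 7 and 8 and 15 without the library as block. It was 65 within the libraries of 1 flow cell (6, 7 and 10, by the file names) and 56 within the other (8 and 11), 89 with B cells of like depth and 26 after thinning to 5000 UMIs.

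PLAUR (chr19:43646095-43670169), which encodes the urokinase receptor, had the largest rise. Its CPM was 295, 608 and 408 at 1 dpi and 65.2 and 116 at 4 dpi in group A and 37.2, 113 and 89.1 at 1 dpi and 8.81 and 19.5 at 4 dpi in group B (log2 2.64 ± 0.14 (SE), adjusted p = 9.4e-09). Its level at 4 dpi was lower in both groups, so the groups overlapped across time points, but A was above B in each library. The cells between the groups stood between them in every library, at 99.4, 232 and 173 at 1 dpi and 46.1 and 27.1 at 4 dpi. Across the single cells of a library, Spearman's rank correlation of PLAUR was 0.114 to 0.305 with ISG15 and 0.140 to 0.314 with ISG20. With the other 6 score genes it ran from -0.081 to 0.170. PLAUR UMIs varied between cells by 6.18 to 59.5 times the variance of counting alone.

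EMP1, a small membrane protein of epithelia, was 329.6, 294 and 242 at 1 dpi and 96.9 and 206 at 4 dpi in A and 95.6, 88.9 and 74.8 at 1 dpi and 39.3 and 21.6 at 4 dpi in B (log2 1.96 ± 0.18 (SE), adjusted p = 1.5e-05), with no overlap between the groups. KRT16, a keratin of stressed and wounded epithelium, was 31.02, 65.7 and 83.6 at 1 dpi and 18.4 and 4.36 at 4 dpi in A and 7.21, 16.4 and 16.7 at 1 dpi and 3.39 and 2.09 at 4 dpi in B (log2 2.20 ± 0.23 (SE), adjusted p = 5.9e-05). At 4 dpi it was too low for a test of its own, and KRT16 and KRT17 share much of their sequence, so reads can be split between them. CLDN4, a claudin of tight junctions, was 257, 510.0 and 401 at 1 dpi and 299 and 306 at 4 dpi in A and 91.05, 125 and 93.3 at 1 dpi and 102 and 102 at 4 dpi in B (log2 1.81 ± 0.14 (SE), adjusted p = 1.6e-06). Its lowest A library stood above its highest B library.

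Secreted signals were among the 10 largest rises. LIF, a cytokine that acts through STAT3, was 13.7, 83.4 and 39.7 at 1 dpi and 30.1 and 42.1 at 4 dpi in A and 11.4, 12.8 and 11.96 at 1 dpi and 8.81 and 5.56 at 4 dpi in B (log2 1.93 ± 0.31 (SE), adjusted p = 0.00384). The rise was small in library 6 and large in library 7. CLCF1, a cytokine of the same family, was 29.6, 16.7 and 18.4 at 1 dpi and 26.7 and 26.1 at 4 dpi in A and 8.73, 7.19 and 4.19 at 1 dpi and 9.48 and 3.48 at 4 dpi in B (log2 1.85 ± 0.28 (SE), adjusted p = 0.00237). CCL20, a chemokine, was 62.8, 151 and 149 at 1 dpi and 31.7 and 98.8 at 4 dpi in A and 21.2, 115 and 6.58 at 1 dpi and 15.6 and 17.4 at 4 dpi in B (log2 1.83 ± 0.35 (SE), adjusted p = 0.0106), and its library 7 group B was higher than the A groups of libraries 6, 10 and 11. ECM1, a secreted matrix protein, RND1, a small GTPase, and the noncoding RNA LINC01564 completed the 10, with log2 1.95, 1.81 and 1.91 (adjusted p = 0.00384, 0.00467 and 0.011). They rested on 167, 332 and 222 UMIs over all cells.

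**Figure D2:**
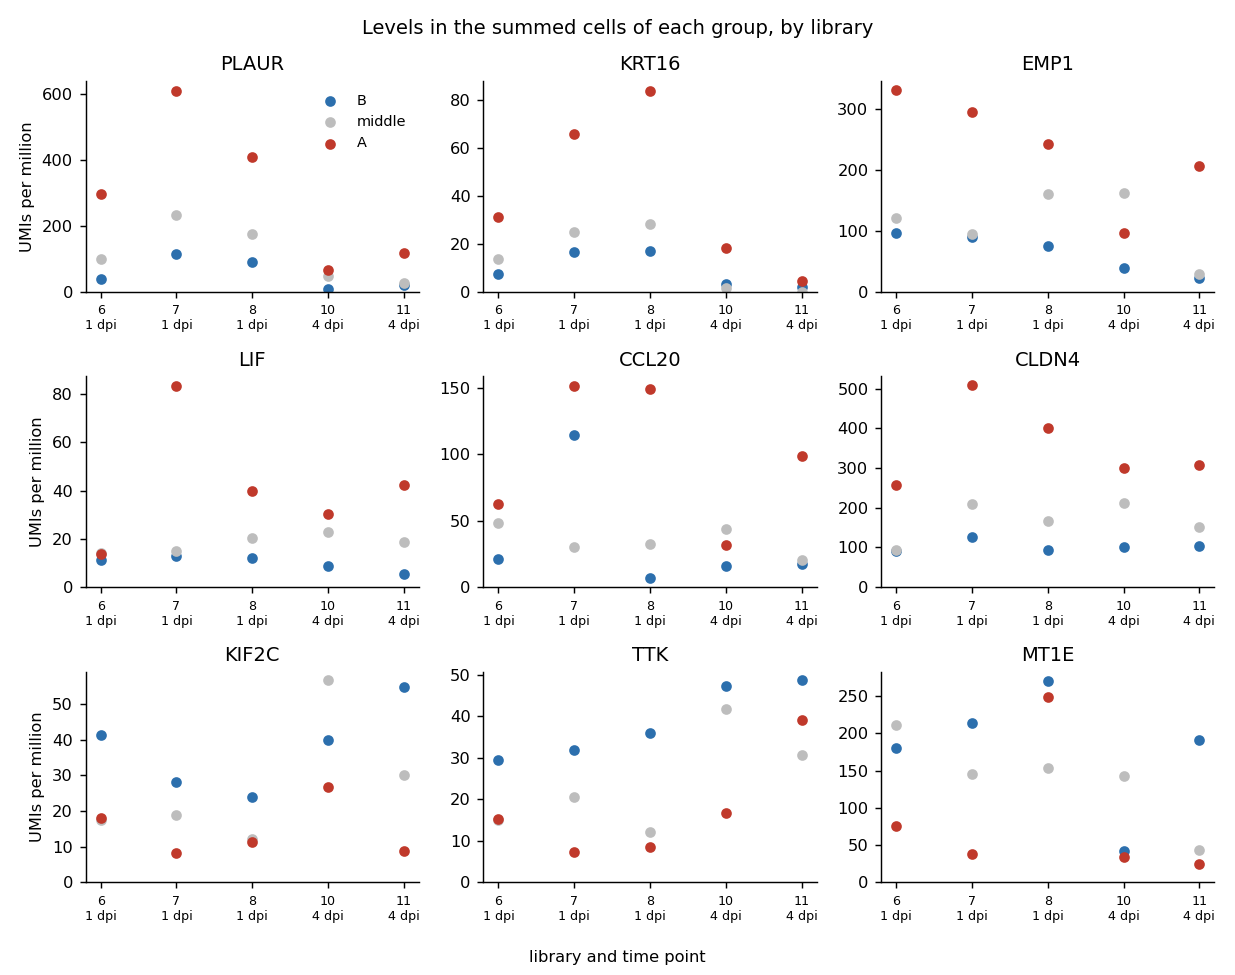
CPM of 9 genes (y axes from 0) in group A (red), the cells between (grey) and group B (blue) of each library (x axes). PLAUR, KRT16, EMP1, LIF, CCL20 and CLDN4 are higher in A than in B in all 5 libraries, and KIF2C, TTK and MT1E are lower, with MT1E close in libraries 8 and 10.

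Of the 14 epithelial markers, 10 were tested, and KRT19, CDH1 and CLDN4 rose while none fell. Of all genes, 1.90% rose. CDH1, which encodes E-cadherin, was 82.9, 171 and 85.1 at 1 dpi and 51.8 and 71.2 at 4 dpi in A and 34.9, 45.7 and 33.5 at 1 dpi and 15.6 and 36.2 at 4 dpi in B (log2 1.503 ± 0.17 (SE), adjusted p = 0.0002), and KRT19 rose by less (log2 0.67 ± 0.11 (SE), adjusted p = 0.00358). EPCAM (log2 -0.08), KRT8 (0.23), KRT18 (0.15) and ELF3 (0.44) did not pass. A further set of genes was picked after their values were seen. The laminin chains LAMA3 and LAMB3 of the epithelial basement membrane rose (log2 0.92 and 0.89; adjusted p = 0.00038 and 0.00107). SLPI, a secreted protease inhibitor, was 159, 238 and 245 at 1 dpi and 164 and 149.6 at 4 dpi in A and 42.9, 92.99 and 86.7 at 1 dpi and 58.9 and 57.7 at 4 dpi in B (log2 1.57 ± 0.12 (SE), adjusted p = 2e-06). LUM was the only tested marker of fibroblasts and LAPTM5 the only one of leukocytes, and neither passed (log2 0.55 and -0.05).

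Of the 34 genes that fell, 11 were genes of G2 and mitosis, the phases in which chromosomes are prepared and separated. Of the 54 listed G2 and mitosis genes, 53 were tested, 11 fell (against 0.341% of all genes) and 0 rose. Their median was -0.70 against 0.00 over all genes. The 11 were TOP2A, CCNB1, CDK1, AURKA, TTK, KIF23, KIF2C, PRC1, NUF2, ANLN and DLGAP5. KIF2C, a kinesin of the mitotic spindle, was 18.03, 8.34 and 11.3 at 1 dpi and 26.7 and 8.71 at 4 dpi in A and 41.4, 28.3 and 23.9 at 1 dpi and 39.97 and 54.9 at 4 dpi in B (log2 -1.34 ± 0.25 (SE), adjusted p = 0.00983). TTK, a kinase of the spindle checkpoint, was 15.1, 7.3 and 8.51 at 1 dpi and 16.7 and 39.2 at 4 dpi in A and 29.6, 31.9 and 35.9 at 1 dpi and 47.4 and 48.7 at 4 dpi in B (log2 -1.19 ± 0.24 (SE), adjusted p = 0.0157). The kinesins KIF24 (-1.89) and KIF15 (-1.57), the centriole kinase PLK4 (-1.35), the spindle proteins DLGAP5 (-1.25) and TROAP (-1.03), the kinetochore protein NUF2 (-1.20) and the mitotic kinase PBK (-1.15) made up most of the 10 largest falls, with adjusted p from 0.0242 to 0.0459. GTSE1 had the lowest value of the list but did not pass (log2 -1.43, adjusted p = 0.0678), and CDC25B had the highest (0.21, adjusted p = 0.596). With each A cell set against the B cell nearest in depth, 0 of 45 tested genes of the list were called and 6 were above 0, with a median of -0.25. KIF2C then stood at -0.76 (adjusted p = 0.296) and TTK at -0.37 (adjusted p = 0.656). Within cells at or below their library's median cell-cycle share, 62 of 7078 genes were called (edgeR). PLAUR (2.88, adjusted p = 1e-05), KRT16, EMP1, CLDN4, HLA-C and HLA-E were among them. LIF (1.79, adjusted p = 0.163), CCL20 (1.85, adjusted p = 0.081), HLA-B (0.61, adjusted p = 0.327) and B2M (0.50, adjusted p = 0.178) did not pass there. Of 17 G2 and mitosis genes tested in these cells 0 were called, with a median of 0.08. The cells were chosen by the summed share of the S phase and the G2 and mitosis genes. The values of these genes within them therefore cannot show whether mitotic genes differed between A and B.

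Per cell, the summed share of the G2 and mitosis genes (UMIs per 10,000) had library medians of 14.5, 13.8 and 11.9 at 1 dpi and 14.5 and 13.5 at 4 dpi in group A and 15.6, 15.2 and 12.1 at 1 dpi and 20.1 and 20.02 at 4 dpi in group B. The median was lower in A in 5 of 5 libraries, with a mean difference of -2.98 ± 2.9 (SD of the 5 differences) (exact sign-flip permutation test, p = 0.063, the smallest p it allows; adjusted over 6 properties 0.375). At 1 dpi the gaps were small and at 4 dpi wider. Against the cells with a score of 0 alone, it was lower in A in 4 of 5, with a mean difference of -1.71 ± 2.39 (SD; exact p = 0.25). S phase genes averaged 12.7 in A and 17.2 in B (lower in A in 4 of 5, exact p = 0.125). Of the 41 S phase genes, 37 were tested and 0 passed, with 2 above 0 and a median of -0.33. Its ends were POLD3, a subunit of a replicative polymerase (-0.94, adjusted p = 0.053), and CCNE2, a cyclin (0.17, adjusted p = 0.877).

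MT1E, a metallothionein that binds zinc, also fell. It was 75.01, 37.5 and 248 at 1 dpi and 33.4 and 24.7 at 4 dpi in A and 179.8, 214 and 270.4 at 1 dpi and 41.3 and 191 at 4 dpi in B (log2 -1.28 ± 0.29 (SE), adjusted p = 0.0288), close between the groups in libraries 8 and 10. Metallothionein genes are near copies of each other, and reads can be split among them.

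Of 91 further antiviral effectors, 41 were tested, 2 rose (against 1.90% of all genes) and 0 fell, 33 of 41 were above 0, and the median was 0.30 (0.00 over all genes, of which 50.1% were above 0). The 2 were the interferon-induced helicases DDX60 and DDX60L, which share much of their sequence. DDX60 was 9.38, 12.5 and 9.92 at 1 dpi and 15.04 and 14.5 at 4 dpi in A and 1.52, 4.11 and 4.19 at 1 dpi and 3.39 and 8.35 at 4 dpi in B (log2 1.64 ± 0.36 (SE), adjusted p = 0.0241). DDX60L was 18.8, 18.8 and 7.09 at 1 dpi and 18.4 and 15.98 at 4 dpi in A and 3.41, 12.8 and 4.79 at 1 dpi and 3.39 and 6.96 at 4 dpi in B (log2 1.45 ± 0.34 (SE), adjusted p = 0.0351). They rested on 157 and 227 UMIs, and the A and B values of DDX60 did not overlap. Of 31 interferon receptor, JAK-STAT and IRF genes, 24 were tested and 0 passed (median 0.08). Of 8 genes of ISG15 conjugation, 4 were tested and 0 passed. None of the 22 interferon genes could be tested.

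Of 39 nucleic acid sensors and adaptors, 25 were tested, 1 rose and 1 fell (against 1.90% and 0.341% of all genes), with a median of 0.03. TICAM1, the adaptor of the endosomal sensor of double-stranded RNA, was 17.3, 54.2 and 43.9 at 1 dpi and 15.04 and 20.3 at 4 dpi in A and 7.97, 23.6 and 19.1 at 1 dpi and 7.45 and 6.26 at 4 dpi in B (log2 1.30 ± 0.22 (SE), adjusted p = 0.00445). DHX9, a helicase that unwinds RNA and DNA, fell from 642, 615 and 486 at 1 dpi and 465 and 479.9 at 4 dpi in B to 533, 341 and 373 at 1 dpi and 359 and 275 at 4 dpi in A (log2 -0.49 ± 0.12 (SE), adjusted p = 0.0402).

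MHC class I molecules show peptides of the cell to T cells and are known to be raised by interferon. Of 22 genes of MHC class I presentation, 16 were tested, 4 rose (against 1.90% of all genes) and 0 fell. Of the 16, 15 were above 0, and the median was 0.42. HLA-E, whose product is read by natural killer cells, was 86.6, 86.6 and 76.6 at 1 dpi and 127 and 171 at 4 dpi in A and 46.7, 67.8 and 49.6 at 1 dpi and 78.6 and 67.5 at 4 dpi in B (log2 0.83 ± 0.14 (SE), adjusted p = 0.00437). B2M, the shared light chain, was 319, 365 and 318 at 1 dpi and 498 and 446 at 4 dpi in A and 223, 238 and 235 at 1 dpi and 367 and 282 at 4 dpi in B (log2 0.58 ± 0.11 (SE), adjusted p = 0.00933). HLA-B (log2 0.76) and HLA-C (0.58) rose by similar amounts, with adjusted p of 0.0109 and 0.0106. The HLA genes share sequence, so the split of reads among them is uncertain. When each A cell was set against the B cell nearest in depth, 0 of the 16 were called, with a median of 0.35.

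Other lists gave a few calls each, to be read against the 1.90% of all genes that rose and the 0.341% that fell. Among 24 tested NF-kB targets and chemokines, CCL20 and IL32 rose (median 0.10), and NFKBIE was lowest (-0.26, not passed). Among 31 immediate early genes, FOSL1, IER5, DUSP5 and ZFP36 rose (median 0.21), with NR4A1 highest at 1.31 and KLF10 lowest at -0.36, neither of which passed (adjusted p = 0.134 and 0.286). FOSL1 encodes a subunit of AP-1. Among 20 p53 targets, CDKN1A, the inhibitor of cyclin-dependent kinases, rose most (log2 1.52 ± 0.22 (SE), adjusted p = 0.00162), TP53I3 also rose, and XPC was lowest (-0.35, adjusted p = 0.475). NDRG1 was the 1 gene called of 28 of hypoxia and glycolysis (log2 1.22 ± 0.19 (SE), adjusted p = 0.00237), where PDK1 was lowest (-0.29, adjusted p = 0.579). AXIN2, a feedback inhibitor and target of Wnt signaling, fell (log2 -0.61 ± 0.15 (SE), adjusted p = 0.0459) and was the 1 call of 20 Wnt targets (median -0.17; highest RNF43 at 0.28, adjusted p = 0.657). MANF, a protein of the endoplasmic reticulum, rose (log2 0.62 ± 0.12 (SE), adjusted p = 0.0104) and was the 1 call of 29 genes of the ATF4 and unfolded protein response (lowest CHAC1 at -0.50, adjusted p = 0.327).

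Over all plates, no gene passed among 12 Notch targets (HES5 -0.96, adjusted p = 0.123, to JAG1 0.53, adjusted p = 0.358), 19 heat shock genes (HSPD1 -0.28 to HSPA1B 0.71, adjusted p = 0.251 and 0.283) or 19 regulators of retroelements and heterochromatin (UHRF1 -0.65 to MPHOSPH8 0.06, adjusted p = 0.333 and 0.88). Fitted by time point, 0 heat shock genes passed, the Notch targets HES5 and HES6 fell (1 of 15 tested at 1 dpi and 1 of 10 at 4 dpi), and the regulators DNMT1, UHRF1 and CBX5 fell at 4 dpi (3 of 19 tested). Among all genes, 0.449% fell at 1 dpi and 0.810% at 4 dpi. Of 82 cytosolic ribosomal protein genes 81 were above 0, with a median of 0.15 and 0 calls (RPL22L1 -0.20 to RPS18 0.37, adjusted p = 0.576 and 0.113). At 1 dpi 81 of 82 were above 0, with a median of 0.30, and RPS15, RPS27 and RPS28 rose (against 2.28% of all genes). At 4 dpi 21 of 81 were above 0, with a median of -0.07 and 0 calls. Of 23 mitochondrially encoded genes, the tRNA gene MT-TV rose (log2 0.78 ± 0.15 (SE), adjusted p = 0.0106), and MT-ND6 was lowest (-0.22, adjusted p = 0.663).

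Fitted on its own, 1 dpi gave 229 genes higher and 45 lower in A (2.28% and 0.449% of 10031, 2.73% together), and 4 dpi gave 57 higher and 78 lower (0.592% and 0.810% of 9632, 1.40% together). PLAUR rose at both, by 2.63 (adjusted p = 4e-09) and 2.63 (0.00042), as did EMP1 (1.84 and 2.21, adjusted p = 8.6e-08 and 0.00313), CLDN4 (1.97 and 1.51, adjusted p = 1.7e-07 and 0.00155) and LIF (1.80 and 2.25, adjusted p = 0.00755 and 0.0166). At 1 dpi the antiviral genes MX2, IFITM2 and DDX60 rose, and at 4 dpi RBCK1 did. HLA-E rose at both (0.73 and 0.97, adjusted p = 0.0161 and 0.0382). Of the G2 and mitosis genes, 6 of 52 fell at 1 dpi and 15 of 54 at 4 dpi, and of the S phase genes 0 of 37 and 4 of 36 (MCM6, MCM7, RRM1 and UHRF1). With each A cell set against the B cell nearest in depth, 172 genes were called at 1 dpi and 0 at 4 dpi (edgeR; 606 genes had an unadjusted p under 0.05), and without library 7 1 dpi gave 159 calls.

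The difference between A and B differed by time point for 19 genes (0.191% of 9959), by edgeR's test of the interaction. For 16 the A-to-B ratio was lower at 4 than at 1 dpi, and for 3 (0.0301%) higher. TFF3, a secreted trefoil peptide of goblet cells, was 134, 137 and 183 at 1 dpi and 70.2 and 65.4 at 4 dpi in A and 43.2, 59.1 and 78.95 at 1 dpi and 96.9 and 91.1 at 4 dpi in B, above B in every 1 dpi library and below it in both 4 dpi libraries (interaction log2 -2.00 ± 0.25 (SE), adjusted p = 0.00282). TUBA1B, an alpha tubulin, was 820.1, 523 and 622 at 1 dpi and 712 and 559 at 4 dpi in A and 809, 703 and 601 at 1 dpi and 1629.9 and 1768 at 4 dpi in B (interaction log2 -1.48 ± 0.21 (SE), adjusted p = 0.00511). At 4 dpi A was well below B, while at 1 dpi the groups lay close. CDK6, STMN1, PARP1, ASF1B, DUT, GPX2 and MYBL2 had interaction values from -1.80 to -1.42 on the log2 scale, with adjusted p from 0.00282 to 0.0331. DUT guards the nucleotide pool, ASF1B carries histones, MYBL2 is a transcription factor of dividing cells, STMN1 acts on microtubules, PARP1 in DNA repair and CDK6 at the entry into the cell cycle. Group A of library 11 had shallower cells than its group B. Against B cells of like depth TFF3 still passed (adjusted p = 0.0189), while TUBA1B and CDK6 did not (both 0.176), and without libraries 6, 8, 10 and 11 in turn the test called 8, 1, 48 and 4 genes.

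Because 2 genes supplied most of the score, the cells were also regrouped by parts of it, a choice made after the first results were seen. Grouped by ISG15 alone, against the 512 cells with no ISG15 UMI, 63 genes rose and 2 fell (0.603% and 0.0192% of 10440). Grouped by ISG20 alone, against the 572 cells with no ISG20 UMI, 160 rose and 46 fell (1.49% and 0.429% of 10735, 1.92% together). The 163 high cells of each kind had 55 in common. Grouped by the other 6 genes (IFI6, IFIT1, IFIT2, IFIT3, MX1 and OAS1), 1 gene of 9647 passed, the Wnt target APCDD1 (0.0104%; 746 genes had an unadjusted p under 0.05).

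PLAUR was 1.28 ± 0.16 (SE; adjusted p = 0.00118) on the log2 scale with ISG15 alone, 2.04 ± 0.16 (SE; adjusted p = 9.8e-06) with ISG20 alone and 0.20 ± 0.29 (SE; adjusted p = 0.895) with the other 6 genes. KRT16 was 2.00 ± 0.22 (SE; adjusted p = 0.00024), 1.58 ± 0.26 (SE; adjusted p = 0.00652) and -0.46 ± 0.32 (SE; adjusted p = 0.76) in that order, and CLDN4 was 0.88 ± 0.13 (SE; adjusted p = 0.00323), 1.39 ± 0.16 (SE; adjusted p = 0.00047) and 0.29 ± 0.26 (SE; adjusted p = 0.816). EMP1 passed with ISG20 (2.25 ± 0.15 (SE; adjusted p = 2.5e-06)) and not with ISG15 (0.70 ± 0.23 (SE; adjusted p = 0.204)), and CCL20 the reverse (1.13 ± 0.35 (SE; adjusted p = 0.122) and 2.01 ± 0.28 (SE; adjusted p = 0.00256)). DDX60 and DDX60L did not pass with ISG15 alone (1.02 and 0.70, adjusted p = 0.215 and 0.369). Nor did they with ISG20 alone (0.84 and 1.06, adjusted p = 0.178 and 0.0814), where the antiviral genes TRIM5 and SLFN5 rose. B2M passed with ISG15 alone, and HLA-B, HLA-C and HLA-E with ISG20 alone. With the other 6 genes, 0 of 38 antiviral effectors and 0 of 16 MHC class I genes were called (medians 0.19 and 0.21). These groupings share cells, and the differences between them were not tested.

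The mitotic genes were lowest with ISG20. Their median was -0.80 with ISG20 alone (17 of 54 called lower, against 0.429% of all genes), -0.25 with ISG15 alone (0 of 53 called) and -0.12 with the other 6 genes (0 of 52). Cells of like depth were not compared in these groupings. Between groups A and B, 0 of 45 tested genes of the list were called at like depth. ISG15 and ISG20 also went with each other. ISG20 was higher in the cells high in ISG15 (1.41 ± 0.26 (SE; adjusted p = 0.0149)), and ISG15 was higher in the cells high in ISG20 (1.12 ± 0.19 (SE; adjusted p = 0.00796)). IFI6 passed in neither (0.37 ± 0.30 (SE; adjusted p = 0.653) and 0.15 ± 0.32 (SE; adjusted p = 0.871)). With the whole score less ISG20, 13 genes rose and 0 fell, among them PLAUR (1.26), KRT16 (1.72), SLPI (1.01) and IL32 (1.03).

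The promoters of the genes that moved were scanned for the motifs printed above. Of the 189 genes that rose, 143 had a promoter in the table, and 17 of 143 held TGANTCA, among them PLAUR, EMP1, ECM1, CLDN4 and LAMA3, while 4 of 143 held the paired GAAA of the response element, among them DDX60, DDX60L and B2M. Over the genes tested, 3.51% held the first and 2.03% the second. Of the 34 genes that fell, 25 had a promoter, and 11 of 25 held TTTGAA, against 8.03% of the genes tested and 13.6% of all promoters. As 75.7% and 73.5% of the called genes had a sequence, fewer than 80%, the comparison of shares is void and these counts describe only the promoters at hand.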

How the data were processed

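Single cells were sorted into 384-well plates and sequenced by SORT-seq, a method that tags the 3′ end of each transcript with a well barcode and a UMI, so counts fall on the last part of a gene. Per the paper's methods and the labels, the authors mapped read 2 (60 bases) to human transcripts with BWA (version not given in the sources used here; build hg38 per the submitters' processing notes) and deposited UMI counts per gene and well, unfiltered and not normalized, 1 plate per file. Dead cells were gated out by DAPI. Only human-mapped counts were analysed here. The libraries held 4487175 to 7632951 human UMIs, with library medians of 18836 to 36219.5 per passing cell. Doublets were not called, since 1 cell was sorted per well, and 260 of 296 passing well numbers passed in 2 or more libraries, which all use the same 384 barcodes.

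Groups A and B were summed per library, over genes listed in all 5 libraries, and tested with edgeR 4.0.16 (filterByExpr, TMM, quasi-likelihood test, library as block, Benjamini-Hochberg over all genes, threshold 0.05; R 4.3.3). Libraries, not cells, were the replicates. The SE of an edgeR log2 change was its absolute value over the square root of edgeR's F statistic. Because A and B come from the same library, the library is the pairing, by design. Single values were tested by exact permutation. Named genes were the 8 score genes, the 10 largest called rises and falls of 1 direction in all 5 libraries, called genes of the interferon lists, the 2 extremes of each other list and up to 10 interaction genes by p. The members, lists and tests were chosen with earlier results of these data known. The alternatives were DESeq2 1.42.0, no filter, other scores and group sizes, stricter cell filters, low-cycling cells, depth-paired or thinned cells, no block, single flow cells and leaving out each library. On simulated counts with 200 changed genes, the fit over all plates called 21.5%, 79.9% and 98.9% of those tested that were changed by 0.5, 1 and 2 on the log2 scale, and the 4 dpi fit 0, 32.6% and 91.5%. A few genes are not reported here. Coordinates are of GRCh38.p14, from RefSeq.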

Additional observations from a re-analysis of the deposited data

Results flagged for a closer look

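For 19 genes the difference between group A and group B itself differed between the time points, by edgeR's interaction test. Values are the log2 ratio of A to B at 4 dpi minus that at 1 dpi. It was negative for 16 of them, of which those reported here follow. TFF3, the trefoil peptide, stood at -2.00. Genes of DNA synthesis and the cell cycle were CDK6 (-1.62), PARP1 (-1.54), ASF1B (-1.73), DUT (-1.49), MYBL2 (-1.80), RRM1 (-1.55), KIAA0101 (-1.93), MCM6 (-1.68) and DEPDC1B (-3.77). DEPDC1B was low, with a CPM of 1.67 and 4.36 in group A of libraries 10 and 11 and 20.3 and 23.6 in group B. It was called in 6 of 18 alternatives and was not tested against B cells of like depth. The cytoskeletal genes were TUBA1B (-1.48) and STMN1 (-1.42), and others with a lower ratio at 4 dpi were GPX2 (-1.62), a glutathione peroxidase, PCP4 (-1.85) and LDHA (-0.95), lactate dehydrogenase. The 3 genes with a higher ratio at 4 dpi were TRIB3 (1.097), GPC1 (2.41), a glypican, and GPATCH1 (1.42). These rest on 3 and 2 libraries, and library 11 had shallower cells in group A. Against B cells of like depth, 3 genes passed, and of the 19 only TFF3 was among them.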

How the results depend on the processing

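The count of called genes changed by more than 1.5 times under many settings, and the cause was not tested. Over all plates, 223 became 117 with DESeq2, 368 without the filter, 15 without the library block, 89 with B cells of like depth, 26 after thinning, 62 in low-cycling cells, 51 against the cells with a score of 0 alone, 89 between upper and lower score ranges of equal size, 65 and 56 within the flow cells, 113 without ISG15 in the score, 13 without ISG20, 1 without both and 65 by ISG15 alone, and 77 to 167 leaving out 1 library. At 1 dpi, 274 became 90 (DESeq2), 497 (no filter), 442 (cells with more than 3000 genes), 128, 163, 172, 35 and 25 (score of 0 alone, equal ranges, like depth, thinned, low-cycling), 66, 6 and 0 without ISG15, ISG20 or both, and 159 to 389 leaving out 1 library. At 4 dpi, 135 became 12 (DESeq2), 389 (no filter), 18 (more than 3000 genes), 16, 0, 3 and 47 (equal ranges, like depth, thinned, low-cycling), 280 with the mean log score, 263, 249, 46 and 4 without IFI6, ISG15, ISG20 or both of the last, and 7 and 1647 by ISG15 or ISG20 alone. Leaving out 1 library at 4 dpi leaves 1 pair, with no residual spread, and was not run. The 19 interaction genes became 187 (no filter), 47 (more than 3000 genes), 9 (mitochondrial maximum 15%), 5, 2, 3, 5 and 0 (score of 0 alone, equal ranges, like depth, thinned, low-cycling), 8, 0 and 0 without IFI6, ISG20 or both ISG15 and ISG20, 0 and 577 by ISG15 or ISG20 alone, and 1 to 48 leaving out 1 library. Where edgeR's count was 0, 417 to 606 genes had an unadjusted p under 0.05. Held-out score genes called were 1 (of 3 tested), 2 with DESeq2, 3 without the filter and 0 to 2 leaving out 1 library. Thinned, too few UMIs were left to test them. Scores without ISG20 or both, each gene alone, and each library's highest cell left out were chosen after seeing the data.

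Without ISG15 and ISG20 in the score, called rises that turned negative included KRT16 (-0.46), EMP1 (-0.26), LINC01564 (-0.16), CDKN1A (-0.034), NDRG1 (-0.60), MANF (-0.061), MT-TV (-0.16), KRT19 (-0.20), LAMA3 (-0.087) and LAMB3 (-0.030), as did MT-TV in low-cycling cells (-0.062), while the interaction of CDK6 (0.17) and GPX2 (0.23) turned positive. Of the 35 named genes over all plates, 491 of 837 alternatives kept direction and call and 337 lost the call. PLAUR and CLDN4 kept theirs in 24 of 26, DDX60 in 10 of 21 and KIF24 in 3 of 14. Leaving out 1 library, the log2 difference between time points ran over -0.33 to 0.25 (ISG15), -0.11 to 0.58 (MX1), -0.27 to 0.40 (OAS1) and -0.30 to 0.15 (ISG20), none of them called in the full fit. Against the cells with a score of 0 alone, A minus B became 7696 UMIs, 817 genes and -0.346% spike-in, each reversed. Depth limits the score itself, since a median A cell rests on 3 to 5 score UMIs.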
